A study of Rattus norvegicus with 4 samples.

Results

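Lamp5 neurogliaform-type interneurons of the rat orbitofrontal cortex were picked out of single-nucleus RNA sequencing data by their own counts. A nucleus was a member if it held at least 500 genes, at most 5% mitochondrial UMIs (unique molecular identifiers, each counting 1 captured transcript), at least 2 UMIs of Gad1 and Gad2 together, at most 1 UMI of Slc17a7, at least 4 UMIs of Reln, Sv2c and Pde11a together, at least 2 UMIs of Adarb2, no UMI of Vip or Pvalb, and at most 1 UMI of Sst. This left 546 of the 43903 nuclei that passed the first 2 filters, out of 46633 barcodes. There were 143 and 131 in METH replicates 1 and 2, and 150 and 122 in saline replicates 1 and 2. Values per library follow this order throughout. The members were set against the 2763 other nuclei with at least 2 UMIs of Gad1 and Gad2, called other Gad nuclei, of which 119 held more than 1 UMI of Slc17a7.

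Neurogliaform cells are GABA-releasing interneurons found mostly in the upper cortical layers. They have short, dense axons that release GABA into the space around them as well as at synapses, and they evoke slow inhibition through GABA-A and GABA-B receptors in many neighbours at once. In rodents most of them arise in the caudal ganglionic eminence, a part of the embryonic brain that also gives rise to Vip interneurons, whereas Sst and Pvalb interneurons come from the medial ganglionic eminence. Reln, one of the genes of the rule, encodes reelin, a secreted protein that guides neuronal positioning and later acts at synapses. Sv2c encodes a synaptic vesicle protein, Pde11a an enzyme that breaks down cyclic nucleotides, and Adarb2 a member of the RNA-editing enzyme family that marks interneurons of the caudal ganglionic eminence.

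All rats were wild-type male Sprague-Dawley animals of 8 weeks. The METH group received 1 mg/kg methamphetamine, a psychostimulant that drives dopamine release, intraperitoneally for 7 days, and the saline group received saline by the same route. Each group has 2 libraries from the cortices of 4 animals; the sources used here do not say how the animals were divided between libraries, so p-values measure the spread between these libraries, which may be technical. The 4 libraries held 8467 to 18958 barcodes and 37758602 to 44034787 UMIs. Saline replicate 1 stood apart with the most barcodes and the fewest UMIs per nucleus: its members had a median of 2694.5 UMIs, against 4019 and 4707 in METH and 4485 in saline replicate 2. The summed counts of the members came to 638057, 673818, 458142 and 593244 UMIs. Between libraries, 212 barcode sequences were shared among the nuclei kept and 0 among the members. Scrublet ranks marked 14, 9, 15 and 3 members as likely doublets, 41 in all, and they were kept in the main comparison.

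Genes that the rule did not use were examined first. Lamp5 itself, which encodes a membrane protein of synaptic vesicles and endosomes, was seen in 31.3% of members, against 0.627% of Vip, 1.84% of Sst, 1.91% of Pvalb and 4.20% of all other Gad nuclei. The 319 Vip and 163 Sst nuclei are other Gad nuclei with at least 2 UMIs of that gene, and the 157 Pvalb nuclei have at least 1. Free RNA gives a UMI here and there in any nucleus: in 2803 oligodendrocyte nuclei, which should lack Lamp5, the share was 1.36% at a median of 1370 UMIs, against 3865.5 in the members. By library Lamp5 was seen in 26.6, 42.0, 25.3 and 32.8% of members. Kit, a receptor tyrosine kinase, was seen in 54.4% of members and 10.4% of other Gad nuclei, and Id2, an inhibitor of basic helix-loop-helix factors, in 22.2% and 3.73%. Sox6 and Lhx6, transcription factors of interneurons from the medial ganglionic eminence, were seen in 6.04% and 0.366% of members, against 95.7% and 19.6% of Sst nuclei. Oligodendrocyte nuclei held a UMI of Kit in 0.999%, of Id2 in 2.68%, of Sox6 in 9.56% and of Lhx6 in 0.107%. Their summed markers of the medial eminence came to 240, 304, 418 and 283 CPM, against 86.2, 123, 118 and 59.0 CPM in members. For Sox6 they are thus no measure of free RNA, and whether the Sox6 UMIs of members are free RNA was not tested. Of the 24 marker genes listed for this type, 22 are among the genes of the files and 20 had a UMI in members. That count does not set the members apart, since 21 had a UMI in other Gad nuclei and 20 in oligodendrocyte nuclei.

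Npy, the neuropeptide most often used to name neurogliaform cells, could not be used here. It had 0 UMIs in the members and 1 UMI in all 46633 barcodes, so these counts barely capture it in any cell type and say nothing of its expression. Ndnf, another common marker, was not analysed here. Cplx3, a complexin of vesicle release, was seen in 3.66% of members and 0.109% of other Gad nuclei, with 0 nuclei in the Vip, Sst and Pvalb groups. Just inside the rule's threshold, the 47 members with 4 or 5 UMIs of Reln, Sv2c and Pde11a had Lamp5 in 14.9%, Kit in 31.9% and Sox6 in 10.6% of nuclei. The 41 nuclei just outside, with 2 or 3 such UMIs and the other criteria met, had them in 9.76%, 31.7% and 19.5%.

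**Figure D1:**
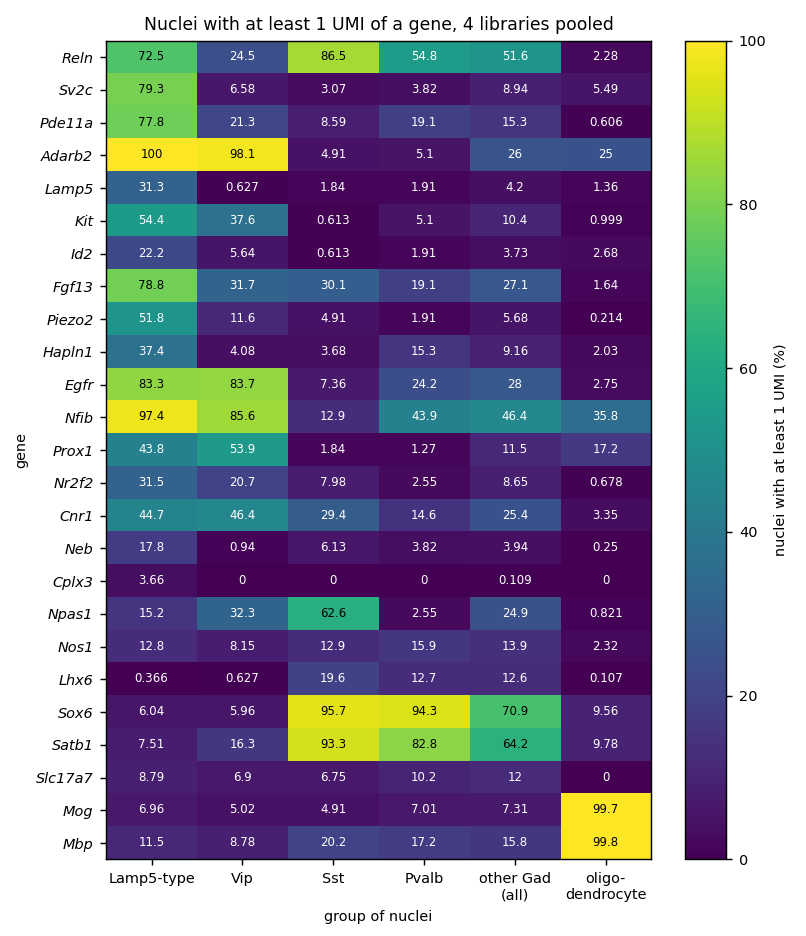
Percentage of nuclei with at least 1 UMI of each gene (rows), by group of nuclei (columns), with the 4 libraries pooled; the colour scale runs from 0 to 100%. Lamp5 stands at 31.3% in Lamp5-type nuclei and at most 4.20% in the other groups, and Sox6 at 6.04% in Lamp5-type nuclei, 95.7% in Sst and 94.3% in Pvalb nuclei. Reln, Sv2c, Pde11a, Adarb2 and Slc17a7 are part of the rule.

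The profile of the members was read from their summed counts in each library, scaled to CPM, so that the sums of every library have the same total. Among 9278 genes with a mean of at least 10 CPM in either group, 117 (1.26%) were at least 2-fold higher in the members in all 4 libraries, and 146 (1.57%) at least 2-fold lower. Ratios are log2 of CPM + 10 over CPM + 10, which understates the change of low genes, and are averages over the 4 libraries with their range. Since the nuclei were chosen by their counts, these ratios are a description and have no test.

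The genes of the rule set the scale. Sv2c had 809, 883, 762 and 907 CPM in Lamp5-type nuclei against 47.1, 59.9, 72.6 and 35.5 CPM in other Gad nuclei, Pde11a 1075, 1181, 923 and 1237 CPM in Lamp5-type nuclei against 85.9, 104, 109.6 and 79.9 CPM in other Gad nuclei, and Adarb2 1978, 2019.8, 1954 and 2385 CPM in Lamp5-type nuclei against 485, 541, 408 and 379 CPM in other Gad nuclei. Reln had 3449.5, 4219, 3307 and 3993 CPM in Lamp5-type nuclei against 829, 1089.6, 819 and 929.7 CPM in other Gad nuclei, so it was plentiful in other Gad nuclei too. Gad1 and Gad2, the enzymes that make GABA, were also higher, with ratios of 0.95 (0.60 to 1.13) and 1.11 (0.78 to 1.31).

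Prox1 and Nr2f2, transcription factors on the list for the caudal ganglionic eminence, were higher in the members. Npas1, on the same list, was not, and several factors of the medial eminence were lower. Of 17 interneuron transcription factors at 10 CPM or more, Adarb2 aside, Prox1, Nr2f2, Id2, Nfib and Nfix were at least 2-fold higher in all 4 libraries and Lhx6, Sox6 and Satb1 were among those at least 2-fold lower. Nfib, a nuclear factor I protein, had 1724, 1863, 1875 and 1755 CPM in Lamp5-type nuclei against 347, 371, 468 and 315 CPM in other Gad nuclei. Its relative Nfix had 169, 177, 199 and 226 CPM in Lamp5-type nuclei against 36.2, 34.8, 44.1 and 32.1 CPM in other Gad nuclei. Both were named for being at least 2-fold higher in all 4 libraries, so the direction in each library was part of the choice. Prox1, a homeobox factor of caudal interneurons, averaged 164 ± 24.5 CPM in Lamp5-type nuclei and 45.4 ± 4.52 CPM in other Gad nuclei (SD, n = 4 libraries each). Sox6 showed the lowest ratio of any gene named, −4.63 (−5.59 to −3.93), with 34.5, 72.7, 45.8 and 15.2 CPM in Lamp5-type nuclei against 1152, 1247, 1097 and 1203 CPM in other Gad nuclei. Satb1, a chromatin organiser that promotes the maturation of Sst and Pvalb interneurons, stood at −3.93 (−4.44 to −3.08). Npas1, on the marker list for caudal interneurons, did not follow Prox1 and Nr2f2. It averaged 73.8 ± 22.6 CPM in Lamp5-type nuclei and 112 ± 22.5 CPM in other Gad nuclei, and was seen in 15.2% of members and 62.6% of Sst nuclei.

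The 25 genes with the highest ratios included Piezo2, Fgf13, Trpm3 and Kcnn2, which encode ion channels or a channel partner. Piezo2, a channel opened by membrane stretch, came first with 243, 200.4, 275 and 217 CPM in Lamp5-type nuclei against 15.97, 28.0, 20.0 and 14.6 CPM in other Gad nuclei. Piezo2 was seen in 51.8% of members and 5.68% of other Gad nuclei. Fgf13, an intracellular fibroblast growth factor relative that binds sodium channels, had 798, 695, 809.8 and 791 CPM in Lamp5-type nuclei against 101, 128, 135 and 88.4 CPM in other Gad nuclei. Trpm3, a cation channel gated by heat and neurosteroids, had a ratio of 2.40 (2.25 to 2.69). Kcnn2, a calcium-activated potassium channel that shapes the pause after a spike, averaged 320.4 ± 47.6 CPM in Lamp5-type nuclei and 66.2 ± 8.95 CPM in other Gad nuclei. Cacna2d1, an auxiliary calcium channel subunit and the target of gabapentin, was higher at 1.92 (1.48 to 2.17), while its relative Cacna2d2 was lower at −2.59 (−3.11 to −2.09). Kcnc2, a potassium channel subunit of fast-spiking cells, was lower at −1.79 (−1.99 to −1.66), as was Kcnh7 at −1.87 (−2.45 to −1.19). Of 27 potassium channel genes at 10 CPM or more these were the 3 past 2-fold in all libraries, and the median ratio of the list was −0.16 against −0.07 over all genes. Of 20 sodium, calcium and HCN channel genes, Cacna2d1 and Cacna2d2 were the ones past 2-fold, with a median of 0.01.

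Growth factor receptors and cell surface proteins formed the next group. Kit had 295, 279, 207 and 275 CPM in Lamp5-type nuclei against 38.8, 49.9, 38.8 and 32.6 CPM in other Gad nuclei. Egfr, the epidermal growth factor receptor, had 815, 1112, 836 and 979 CPM in Lamp5-type nuclei against 189, 244, 163 and 190.3 CPM in other Gad nuclei. Both receptors were several times higher in each Lamp5-type library than in any other Gad library. Rxfp1, the receptor for the hormone relaxin, had 735, 695, 644 and 897 CPM in Lamp5-type nuclei against 107, 133, 162 and 116 CPM in other Gad nuclei. Sema5a, a membrane-bound semaphorin of axon guidance, had a ratio of 2.22 (1.98 to 2.51), and Hapln1, which links hyaluronan to matrix proteoglycans, of 2.09 (1.82 to 2.42). Vcan, the proteoglycan versican, was higher as well at 1.67 (1.44 to 1.88), whereas Bcan and Acan, proteoglycans of perineuronal nets, had ratios of −1.10 and −0.68 and were not past 2-fold in all libraries.

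Signalling and cytoskeletal genes were also among the 25. Homer2, a scaffold that ties metabotropic glutamate receptors to their effectors, had 378, 489.7, 447 and 405 CPM in Lamp5-type nuclei against 64.6, 65.3, 74.8 and 63.8 CPM in other Gad nuclei. Tnfaip8l3, a carrier of phosphoinositides, stood at 2.71 (2.37 to 3.03), and Rgs10, a brake on G protein signalling, at 2.13 (1.99 to 2.32). Pld5, Myo3a, Disp3, Arhgef28, Tmeff1, Cpne7 and Tp53i3 had ratios of 2.43, 2.39, 2.33, 2.19, 2.10, 2.07 and 2.22. Neb, which encodes nebulin, the actin-binding ruler of the muscle thin filament, had 76.8, 86.1, 127 and 75.9 CPM in Lamp5-type nuclei against 9.12, 12.2, 10.7 and 11.4 CPM in other Gad nuclei. It was seen in 17.8% of members and 3.94% of other Gad nuclei.

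The 15 genes with the lowest ratios included several of axon guidance and adhesion. Slit2, a secreted guidance cue, had 39.2, 19.3, 93.9 and 8.43 CPM in Lamp5-type nuclei against 532, 415, 502 and 477 CPM in other Gad nuclei; its highest member value came from saline replicate 1. Cdh9, a cadherin, averaged 61.3 ± 6.72 CPM in Lamp5-type nuclei and 662 ± 111 CPM in other Gad nuclei, and Il1rapl2, a synaptic adhesion protein of the interleukin-1 receptor family, 152 ± 77.0 CPM in Lamp5-type nuclei and 1331 ± 238 CPM in other Gad nuclei. Eya4 is on the marker list for neurogliaform-type cells, yet its ratio was −3.76 (−4.25 to −3.26), with 4.70, 0, 6.55 and 0 CPM in Lamp5-type nuclei against 147, 165, 149 and 180.3 CPM in other Gad nuclei. Grik3, a kainate receptor subunit, averaged 16.99 ± 4.72 CPM in Lamp5-type nuclei and 230.1 ± 18.6 CPM in other Gad nuclei. Mybpc1, a myosin-binding protein, had 0 UMIs in all 4 Lamp5-type sums and 97.6, 77.5, 59.7 and 53.2 CPM in other Gad nuclei. The remaining ratios were −3.29 for Spon1, a secreted adhesion protein, −2.96 for Adgrv1, −2.87 for Pcsk5, −2.84 for Cdk15, −2.79 for Rspo2, an amplifier of Wnt signalling, −2.75 for Man1a1 and −2.75 for Lypd6b.

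**Figure D2:**
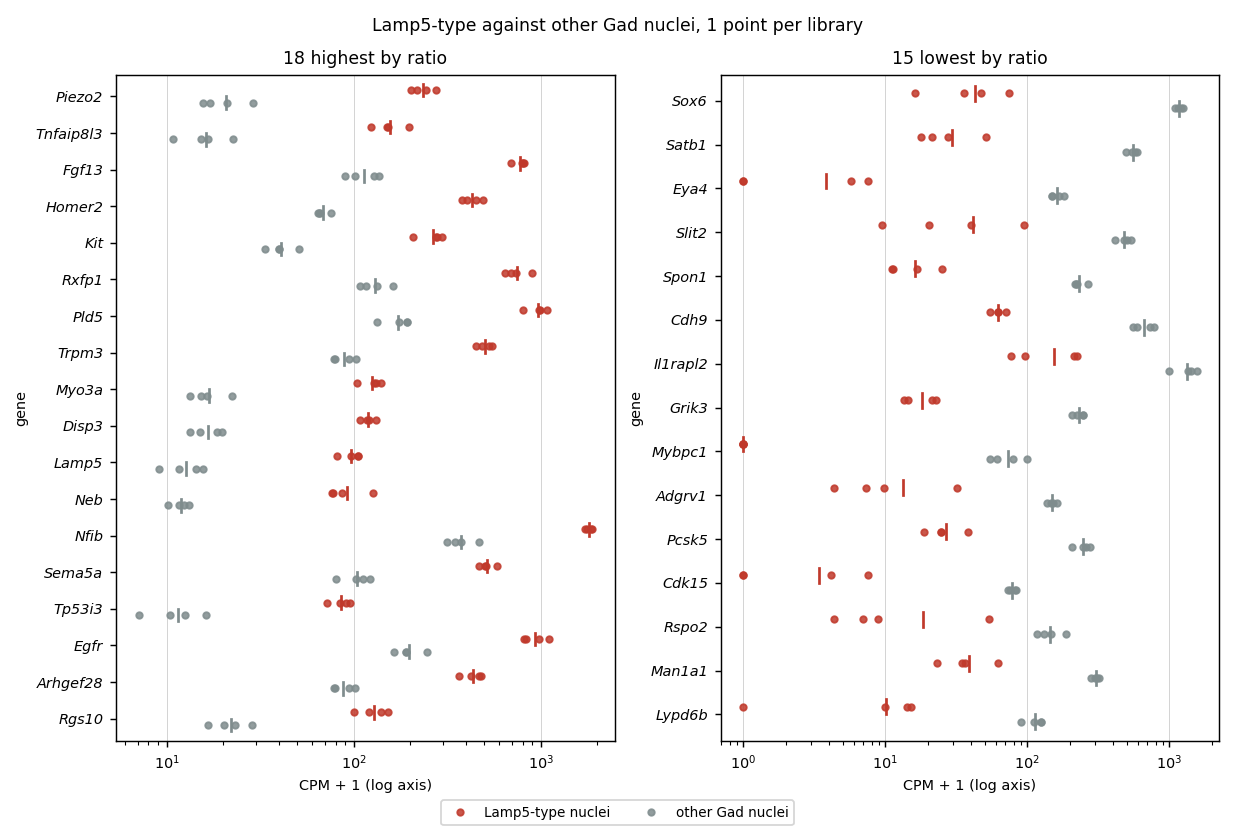
CPM + 1 on a log axis for the 18 genes with the highest (left) and the 15 with the lowest (right) ratio of Lamp5-type to other Gad nuclei, genes of the rule left out. Each point is a library and each vertical line a mean of 4. For Piezo2 the Lamp5-type libraries lie at 200.4 CPM or more and the other Gad libraries at 28.0 CPM or less, and Mybpc1 is at 0 in every Lamp5-type library.

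Other Gad nuclei are a mixture, so the same ratios were taken against Vip, Sst and Pvalb nuclei. All 25 of the highest genes were also at least 2-fold higher in all 4 libraries against Sst and against Pvalb nuclei, and 15 of 25 against Vip nuclei. The 10 that were not past 2-fold against Vip nuclei included Kit, Rxfp1, Disp3, Egfr, Rgs10, Kcnn2, Nfix, Tmeff1 and Cpne7. Egfr averaged 935 CPM in the members and 988 CPM in Vip nuclei, against 30.2 CPM in Sst nuclei, and Cpne7 328 CPM in the members and 322 CPM in Vip nuclei. Egfr and Cpne7 thus had about the same level in both, whereas Kit averaged 264 CPM in the members and 201 CPM in Vip nuclei. Lamp5, Neb and Hapln1 set the members apart from Vip nuclei as well, at 96.2, 91.3 and 149.9 CPM in the members and 1.403, 2.02 and 14.1 CPM in Vip nuclei. Of the 15 lowest genes, 12 were also lower against Sst, 10 against Pvalb and 3 against Vip nuclei, namely Mybpc1, Pcsk5 and Man1a1.

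Receptors for the transmitters and modulators that reach these cells differed in places. Of 11 GABA-A receptor subunits at 10 CPM or more, Gabrb2 (beta2) was past 2-fold in all libraries, at 1.28 (1.06 to 1.48), and the list's median was 0.59. Gabrd, the delta subunit of receptors outside synapses that neurogliaform cells are known for, averaged 78.9 ± 8.35 CPM in Lamp5-type nuclei and 49.1 ± 5.15 CPM in other Gad nuclei, a ratio of 0.59 (0.34 to 0.92). Gabra5 stood at 1.44 (0.93 to 1.88) and the GABA-B subunit Gabbr2 at 0.81 (0.66 to 0.92). Metabotropic glutamate receptors ran the other way, with a median of −1.06 over 5 genes and with Grm7 among those at least 2-fold lower in all libraries, at −1.45 (−1.99 to −1.07). The mu opioid receptor gene Oprm1 was higher in the members, with 241, 214, 201 and 211 CPM in Lamp5-type nuclei against 91.5, 97.3, 91.3 and 79.6 CPM in other Gad nuclei. The delta receptor gene Oprd1 was lower, with 11.0, 4.45, 21.8 and 1.69 CPM in Lamp5-type nuclei against 73.2, 66.8, 70.8 and 69.6 CPM in other Gad nuclei. Both genes were named as at least 2-fold apart in all 4 libraries, so the direction in each library was part of the choice.

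Of 8 endocannabinoid genes at 10 CPM or more, Cnr1 and Mgll were past 2-fold in all libraries, and of 4 acetylcholine receptor genes Chrna7 was, where 1.26% of all genes were. The medians of the 2 lists were 0.02 and 0.29, against −0.07 over all genes. Cnr1, the cannabinoid CB1 receptor, had 266, 312, 231 and 356 CPM in Lamp5-type nuclei against 107, 127, 105 and 88.7 CPM in other Gad nuclei, and Mgll, the enzyme that degrades the endocannabinoid 2-arachidonoylglycerol, had a ratio of 1.23 (1.19 to 1.30). Chrna7, the alpha7 nicotinic receptor subunit, had 263, 364, 268 and 256 CPM in Lamp5-type nuclei against 74.8, 93.7, 102 and 75.0 CPM in other Gad nuclei. The noradrenaline receptor genes Adra1a and Adra1b averaged 623 ± 110.1 CPM in Lamp5-type nuclei and 258 ± 8.49 CPM in other Gad nuclei, and 169 ± 36.0 CPM in Lamp5-type nuclei and 65.0 ± 11.4 CPM in other Gad nuclei; both fell just short of 2-fold in 1 or more libraries. Htr3a, the ionotropic serotonin receptor of caudal interneurons, averaged 41.2 ± 17.6 CPM in Lamp5-type nuclei and 16.9 ± 5.79 CPM in other Gad nuclei. Cnr1 and Htr3a are also on the marker list for another interneuron type, Sncg. That list summed to 580, 453, 408 and 664 CPM in Lamp5-type nuclei against 305, 393, 294 and 255 CPM in other Gad nuclei. The rule does not exclude Sncg cells, and whether some members are of that type was not tested. Dopamine receptor genes were scarce: Drd1 had 5 and 2 UMIs in METH against 1 and 1 UMIs in saline libraries, and Drd5 had 0 UMIs in the members. In the reelin pathway, Dab1, the adaptor that relays reelin signals inside the cell, was higher at 1.70 (1.52 to 1.83), while the reelin receptor genes Vldlr and Lrp8 had ratios of 0.48 (0.02 to 0.85) and 0.40 (0.32 to 0.58).

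Within the members Reln ranged from 0 to 127 UMIs in a nucleus. Of the 546 nuclei, 340 held at least 5 Reln UMIs (Reln-high), 185 held at most 2 (Reln-low), 150 of these with none, and 21 lay between. By library 7, 1, 11 and 2 lay between. Reln-high nuclei had a median of 20.0 Reln UMIs. Depth did not differ much, at medians of 4025 UMIs in Reln-high and 3676 in Reln-low nuclei. The Reln-low share was 30.1% and 36.6% of members in METH libraries, against 35.3% and 33.6% in saline libraries, a difference of −1.11 percentage points (exact two-sided permutation p = 1.0, where 0.333 is the smallest that 2 libraries against 2 allow). The split was drawn after the Reln counts had been seen, so the genes that differ between its sides are described without a test. The rule also bears on it: a nucleus with no Reln had to reach 4 UMIs through Sv2c and Pde11a, and 127 of the 150 held both. Another 51 members held Reln but neither Sv2c nor Pde11a. They had to reach 4 UMIs through Reln alone and could not be Reln-low.

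**Figure D3:**
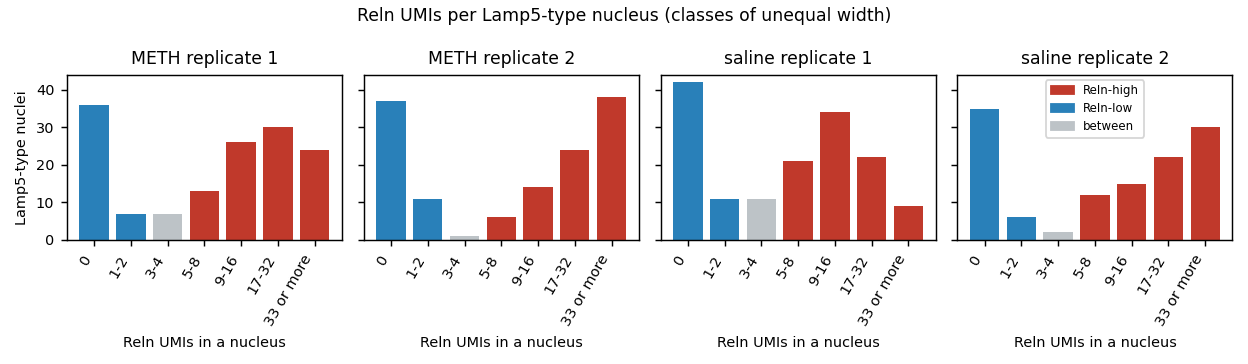
Number of Lamp5-type nuclei (vertical axis) by Reln UMIs in the nucleus (horizontal axis, classes of unequal width), a panel per library. Each library has nuclei with 0 UMIs and nuclei with 5 or more. At 1 to 2 UMIs lie 7, 11, 11 and 6 nuclei, and at 3 to 4 UMIs 7, 1, 11 and 2, 21 in all. METH replicate 1 and saline replicate 1 thus show no dip at 3 to 4.

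Other genes went with Reln. Of 9238 genes at 10 CPM or more in either side, 26 (0.281%) were at least 2-fold higher in Reln-high nuclei in all 4 libraries, Reln among them. Cntn6, an adhesion protein of the contactin family, had 1369, 1303, 1281 and 1379.5 CPM in Reln-high nuclei against 39.8, 56.4, 48.5 and 95.9 CPM in Reln-low nuclei. Sema3e, a secreted semaphorin, had 539.7, 919, 672 and 703 CPM in Reln-high nuclei against 5.68, 105, 0 and 106 CPM in Reln-low nuclei. Both genes were kept for being at least 2-fold higher in all 4 libraries, so the direction in each library was fixed by that choice. Sema3e was also seen in 38.2% of oligodendrocyte nuclei. Neb, described above, had 113, 135, 213 and 115 CPM in Reln-high nuclei against 5.68, 4.03, 6.07 and 0 CPM in Reln-low nuclei, so nearly all of its UMIs in the members came from Reln-high nuclei, 207 against 3. Rxfp1 had 1006, 1016, 926 and 1164 CPM in Reln-high nuclei against 153, 153, 212 and 343 CPM in Reln-low nuclei. Among receptors, the NMDA subunit Grin3a had a ratio of 2.56, the kainate subunit Grik1 1.55 and the ephrin receptor Epha3 1.60. The heparan sulfate sulfotransferases Hs3st5 and Hs6st2 had ratios of 2.32 and 2.24, and the transcription factors Nr2f2 and Nr2e1 of 1.58 and 1.45. Thsd7b (3.53), Tll1 (2.91), Parm1 (2.71), Ptprt (2.13), Cdh13 (1.88) and Angpt1 (2.01) were among the others. Some of these genes were plentiful outside the members too, and so are not particular to Reln-high nuclei. Cntn6 averaged 662 CPM in Vip and 468 CPM in other Gad nuclei, Thsd7b 1876 and 490 CPM, and Cdh13 544 and 1276 CPM. Others were low there, such as Neb at 2.02 CPM in Vip and 10.9 CPM in other Gad nuclei.

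Another 22 genes (0.238%) were at least 2-fold lower in Reln-high than in Reln-low nuclei. Adamts3, a secreted protease known from mouse brain to cut reelin, had 77.8, 68.8, 59.8 and 64.1 CPM in Reln-high nuclei against 261, 431, 322 and 509.7 CPM in Reln-low nuclei. Lrp8, also called ApoER2, a receptor for reelin, had 144, 102, 93.4 and 103 CPM in Reln-high nuclei against 307, 318, 237 and 323 CPM in Reln-low nuclei. The 22 genes were kept for being at least 2-fold lower in all 4 libraries, so the direction in each library was fixed by that choice. Ephb1, an ephrin receptor, had 91.9, 73.6, 97.1 and 92.3 CPM in Reln-high nuclei against 347, 367, 376 and 384 CPM in Reln-low nuclei. The peptide receptor genes Hcrtr2, for orexin, and Tacr1, for substance P, had ratios of −1.51 and −1.48. Asph (−1.54), Plxna4 (−1.48), Tenm3 (−1.81), Alcam (−1.28), Rgs8 (−1.54), Tanc1 (−2.34), Mme (−2.14) and the collagens Col4a3 (−2.26) and Col5a2 (−2.04) followed the same direction. Yjefn3 showed the lowest ratio, −2.94, with 4.71, 7.12, 18.7 and 5.13 CPM in Reln-high nuclei against 96.6, 153, 103 and 182 CPM in Reln-low nuclei.

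Unlike Neb and Rxfp1, several other genes of the profile had similar levels on both sides of the split. Lamp5 stood at 101 CPM on average in Reln-high and 91.4 CPM in Reln-low nuclei, Egfr at 945 CPM on average in Reln-high and 939.8 CPM in Reln-low nuclei, Nfib at 1746 CPM on average in Reln-high and 1957 CPM in Reln-low nuclei and Adarb2 at 2073 CPM on average in Reln-high and 2094 CPM in Reln-low nuclei. Kit leaned to the Reln-high side, at 301 CPM on average in Reln-high and 209.9 CPM in Reln-low nuclei. Homer2 leaned to the Reln-low side, at 315 CPM on average in Reln-high and 647 CPM in Reln-low nuclei. Sv2c and Pde11a did so as well, at 718 CPM on average in Reln-high and 1114 CPM in Reln-low nuclei, and 791 CPM on average in Reln-high and 1708 CPM in Reln-low nuclei, a direction to which the rule itself contributes.

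**Figure D4:**
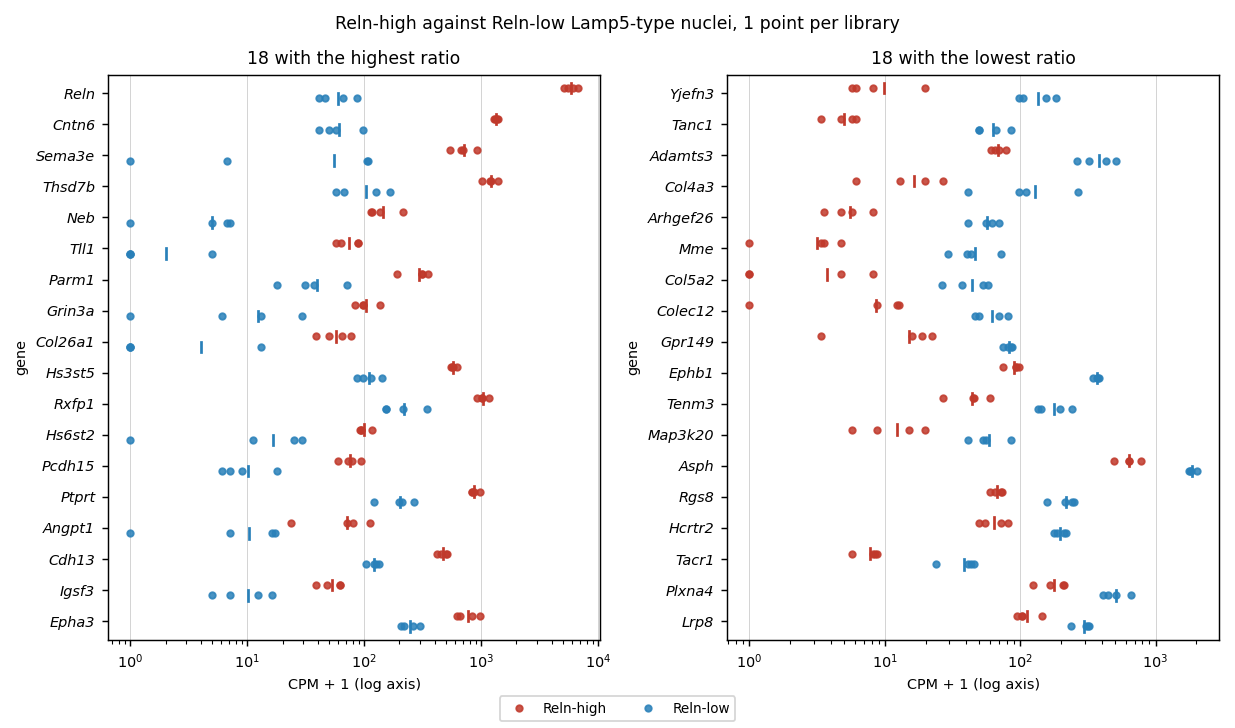
CPM + 1 on a log axis for the 18 genes with the highest (left) and the 18 with the lowest (right) ratio of Reln-high to Reln-low nuclei, among named genes at least 2-fold apart in all 4 libraries. Each point is a library and each vertical line a mean of 4; Cntn6 lies at 1281 CPM or more in Reln-high and 95.9 CPM or less in Reln-low nuclei.

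A first question is whether the number of Lamp5-type nuclei differed. They made up 1.46% (95% exact Clopper-Pearson interval 1.23 to 1.72) and 1.53% (1.28 to 1.81) of the nuclei kept in METH libraries, and 0.862% (0.730 to 1.01) and 1.49% (1.24 to 1.78) in saline libraries; the intervals cover counting error only. Saline replicate 1 was low and the other 3 libraries were alike. The mean difference was 0.319 percentage points (exact two-sided permutation p = 0.667) and 0.00319 without saline replicate 1. Of nuclei with at least 2 Gad1 and Gad2 UMIs the members were 15.3% and 19.4% in METH libraries, against 15.7% and 16.4% in saline libraries, a difference of 1.30 points (exact p = 1.0) that became −0.753 without METH replicate 2. The rule counts UMIs and so favours deep nuclei. With every nucleus thinned to 2000 UMIs the shares of nuclei kept were 1.54% and 1.59% in METH libraries, against 0.921% and 1.52% in saline libraries, among 25618 nuclei of 43903 that held at least 2000. A difference in number was thus not detectable in this design.

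Between METH and saline, 3 of 7653 genes tested in the summed Lamp5-type counts (0.0392%) passed an adjusted p of 0.05 in edgeR's quasi-likelihood F test with Benjamini-Hochberg adjustment. Cst3, the gene of cystatin C, a secreted protease inhibitor, and Tmcc3, a membrane protein of the endoplasmic reticulum, were higher in METH (0.0261%), and Foxp2, a forkhead transcription factor of deep-layer excitatory neurons, was lower (0.0131%). At an unadjusted p under 0.05 there were 342 genes (4.47%), DESeq2 called 0, and the 2 METH libraries were both higher than the saline libraries for 18.1% of all genes tested and both lower for 15.7%. Leaving out 1 library at a time gave 10 calls without METH replicate 1, 6 without METH replicate 2, 6 without saline replicate 1 and 31 without saline replicate 2, in fits where the lone library is assumed to vary like the other group. With marked doublets removed no gene passed, 361 genes being at an unadjusted p under 0.05.

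Cst3 (ENSRNOG00000005195) had 133 and 150 UMIs in METH against 39 and 71 UMIs in saline libraries, or 208 and 223 CPM in METH against 85.1 and 119.7 CPM in saline libraries. Its log2 fold change was 1.04 (SE 0.179), adjusted p = 0.039, and the groups did not overlap. In other Gad nuclei it had 208 and 224 CPM in METH against 98.4 and 122 CPM in saline libraries, a log2 fold change of 0.94, and it was the single gene called among 11722 there (0.00853%). The difference between the 2 effects was 0.10 (SE 0.188, adjusted p = 0.994). Oligodendrocyte nuclei, with 756 and 735 CPM in METH against 339.9 and 492 CPM in saline libraries, lay in the same order. So did the summed microglia markers in the members, 10 of 10 with a UMI, at 122 and 149.9 CPM in METH libraries, against 26.2 and 62.4 CPM in saline libraries; their part in the result was not tested. For Cst3 the adjusted p lay between 2.80e-05 and 1 over 18 alternatives, under 0.05 in 10. Without saline replicate 1 the fold change was 0.84 (adjusted p = 0.063), and with marked doublets removed 0.85 (adjusted p = 0.090). The other Gad nuclei gave 4.18% of genes at an unadjusted p under 0.05, and 9, 4, 9 and 25 calls without METH replicates 1 and 2 and saline replicates 1 and 2 in turn.

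Tmcc3 had 55 and 54 UMIs in METH against 15 and 15 UMIs in saline libraries, or 86.2 and 80.1 CPM in METH against 32.7 and 25.3 CPM in saline libraries, with 47 of 274 METH and 21 of 272 saline nuclei holding any. The log2 fold change was 1.52 (SE 0.280), adjusted p = 0.039. In other Gad nuclei, at 76.8 and 81.5 CPM in METH libraries, against 77.5 and 74.1 CPM in saline libraries, the fold change was 0.05, and the difference between the classes was 1.48 (SE 0.289, adjusted p = 0.061). Within other Gad nuclei the types did not move alike: Tmcc3 had 78.7 and 59.6 CPM in METH against 35.4 and 41.9 CPM in saline Vip nuclei, 28.6 and 84.3 CPM in METH against 10.2 and 21.4 CPM in saline Pvalb nuclei and 102 and 122 CPM in METH against 178 and 149 CPM in saline Sst nuclei. The METH libraries were thus higher in Vip and Pvalb nuclei as well and lower in Sst nuclei, without a test. These values rest on few counts. Tmcc3 UMIs per nucleus were 0.306 and 0.225 in METH against 0.0784 and 0.1625 in saline Vip nuclei. They were 0.169 and 0.5 against 0.0303 and 0.148 in Pvalb nuclei, and 0.5 and 0.606 against 0.522 and 0.778 in Sst nuclei. No difference between Lamp5-type and Vip nuclei was tested. Tmcc3 is abundant in oligodendrocyte nuclei, at 531, 597, 541 and 637 CPM. The summed oligodendrocyte markers in the members, 7 of 7 with a UMI, came to 456 and 214 CPM in METH libraries, against 207 and 155 CPM in saline libraries, and 41 of 109 Tmcc3 UMIs of METH members lay in marked doublets. With marked doublets removed the fold change was 1.15 (adjusted p = 0.541). Among members with at most 1 UMI over the oligodendrocyte markers it was 1.11 (adjusted p = 0.991), and without saline replicate 2 it was 1.33 (adjusted p = 0.080). Over 18 alternatives the adjusted p ran from 4.39e-04 to 1, under 0.05 in 9.

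Foxp2 rested on few nuclei. It had 6 and 4 UMIs in METH against 30 and 19 UMIs in saline libraries, or 9.404 and 5.94 CPM in METH against 65.5 and 32.03 CPM in saline libraries, a log2 fold change of −2.61 (SE 0.479) with an adjusted p of 0.039. The difference from other Gad nuclei, where the fold change was −0.02, was −2.61 (SE 0.452, adjusted p = 0.029), the single call among 10579 genes (0.00945%; 4.64% had an unadjusted p under 0.05). In saline libraries 42 of 49 UMIs came from 6 nuclei with at least 3 each, of which 5 were marked as doublets. The 10 UMIs of METH libraries were spread over 8 nuclei with at most 2 each. With marked doublets removed the single call for the difference was Col4a3, a basement membrane collagen, at −1.97 (adjusted p = 0.028). Its fold change was −1.09 in the members and 0.93 in other Gad nuclei, neither passing. With doublets kept its difference was −1.91 (adjusted p = 0.061), and −1.10 when saline replicate 2 was left out. Foxp2, with marked doublets removed, had too few counts to be tested in the members. Its difference from other Gad nuclei was then −0.40 (adjusted p = 0.996). Without saline replicate 1 the fold change in the members was −2.05 (adjusted p = 0.42), and without METH replicate 2 the difference was −1.95 (adjusted p = 0.386). Without METH replicates 1 and 2 and saline replicates 1 and 2 in turn the difference gave 7, 6, 13 and 14 calls. The summed excitatory neuron markers in the members, 6 of 7 with a UMI and Slc17a6 at 0, came to 470.2 and 476 CPM in METH libraries, against 716 and 428 CPM in saline libraries. Over the 15 alternatives that tested it the adjusted p in the members ran from 1.02e-06 to 1, and over 18 alternatives that of the difference ran from 9.93e-05 to 1.

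**Figure D5:**
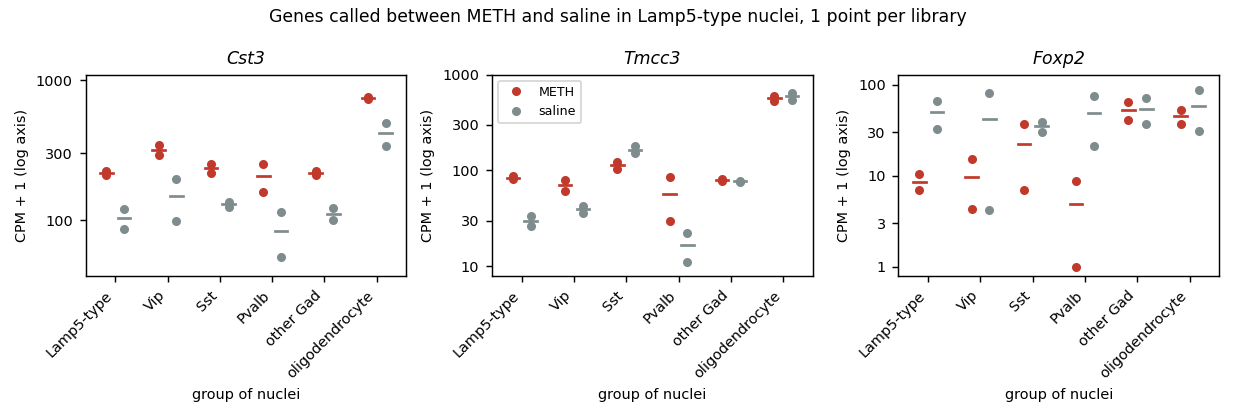
CPM + 1 on a log axis for Cst3, Tmcc3 and Foxp2 in METH (red) and saline (grey) libraries, by group of nuclei; each point is a library and each horizontal line a mean of 2. Cst3 is higher in METH in both Lamp5-type nuclei (208 and 223 CPM against 85.1 and 119.7) and other Gad nuclei, while Tmcc3 in other Gad nuclei lies between 74.1 and 81.5 CPM in all 4 libraries.

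No gene passed with a more positive METH effect in the members than in other Gad nuclei in edgeR's test as specified or by DESeq2. For Tmcc3 the adjusted p of that difference was under 0.05 in 8 of 18 alternatives, all of them fits in edgeR, and ran from 0.003 to 1. After Tmcc3, the genes with the smallest p in that direction were Pde3a, Fign, Gabra5 and Cped1. Pde3a, a phosphodiesterase of cyclic AMP, had 109.7 and 138 CPM in METH against 45.8 and 75.9 CPM in saline libraries, a fold change of 0.98 (SE 0.235) against −0.19 in other Gad nuclei, and a difference of 1.16 (SE 0.265, adjusted p = 0.305). Gabra5, the alpha5 subunit of the GABA-A receptor, had 84.6 and 86.1 CPM in METH against 72.0 and 62.4 CPM in saline libraries, a fold change of 0.34 (SE 0.228), whereas other Gad nuclei had 15.7 and 17.6 CPM in METH against 27.2 and 28.1 CPM in saline libraries, at −0.75. Most of the difference of 1.10 thus lay in other Gad nuclei (SE 0.295, adjusted p = 0.683). Cped1 and Fign had 12 and 13 UMIs in METH against 1 and 0 UMIs in saline libraries, and 9 and 7 UMIs in METH against 1 and 0 UMIs in saline libraries, too few for a precise fold change.

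The pathway lists held no further call. Of 221 listed genes tested, 0 passed the adjusted threshold and 18 (8.14%) had an unadjusted p under 0.05, against 4.47% of all genes; DESeq2 called 0 genes of any kind. The median log2 fold change was −0.03 over the listed genes, which were chosen with earlier results of these data known, and −0.01 over all genes. Values of genes below are therefore given without a claim of change.

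GABA receptors are central to what neurogliaform cells do. Of the GABA-A receptor subunits 11 of 18 were tested, with a median log2 fold change of −0.04. Gabrg1, the gamma1 subunit, had 18.8 and 22.3 CPM in METH against 43.7 and 52.3 CPM in saline libraries, a log2 fold change of −1.24 (SE 0.334) whose adjusted p was 0.801. Kcnj3, a subunit of the potassium channel that GABA-B receptors open, had 633 and 660.4 CPM in METH against 862 and 806 CPM in saline libraries, at −0.38 (SE 0.119), and the receptor subunit Gabbr2 995 and 936 CPM in METH against 836 and 882 CPM in saline libraries. The METH libraries lay below both saline libraries for Gabrg1 and Kcnj3 and above them for Gabbr2, without any of them passing. Over all genes tested, 15.7% lay below and 18.1% above in this way. These genes were also named for the smallest p values of their lists.

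Among ion channels and synaptic genes the smallest p values also fell short. Of the potassium channels 24 of 31 were tested, 12 with a positive and 12 with a negative fold change; Kcnh7 stood at −0.90 (SE 0.292). Of the synaptic adhesion genes 13 of 18 were tested, and Cntnap5b had 191 and 156 CPM in METH against 382 and 243 CPM in saline libraries, at −0.84 (SE 0.190) with an adjusted p of 0.569. Grm7, a presynaptic glutamate receptor, stood at −0.45 (SE 0.152). The opioid receptor gene Oprm1 had 241 and 214 CPM in METH against 201 and 211 CPM in saline libraries, the adrenergic gene Adra1a 603 and 767 CPM in METH against 499.8 and 620.3 CPM in saline libraries, and the cannabinoid receptor gene Cnr1 266 and 312 CPM in METH against 231 and 356 CPM in saline libraries. Lamp5 had 79.9 and 104 CPM in METH against 105 and 96.1 CPM in saline libraries. For Cnr1, Lamp5 and Adra1a the METH and saline libraries overlapped.

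Genes of neuronal activity and of dopamine signalling were mostly too low to test. Of the activity genes 6 of 22 were tested. Fos had 2 and 2 UMIs in METH against 6 and 5 UMIs in saline libraries, Arc 4 and 4 UMIs in METH against 2 and 6 UMIs in saline libraries, and Bdnf 5 and 0 UMIs in METH against 21 and 2 UMIs in saline libraries. Egr1, which could be tested, had 15.7 and 10.4 CPM in METH against 34.9 and 18.5 CPM in saline libraries, at −0.995 (SE 0.475). Drd1 had 5 and 2 UMIs in METH against 1 and 1 UMIs in saline libraries, and Drd2 6 and 15 UMIs in METH against 7 and 5 UMIs in saline libraries. These counts are small, and a moderate change in such genes was not detectable at this depth. The glucocorticoid-responsive gene Fkbp5 had 14.1 and 22.3 CPM in METH against 17.5 and 16.9 CPM in saline libraries, at 0.08 (SE 0.472).

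Several other lists are given for their balance of signs. Over all 7653 genes tested, 3749 had a positive and 3904 a negative fold change. Of the mitochondrially encoded genes 10 of 13 were tested and 9 had a negative fold change, with a median of −0.25; Mt-co2 had 147 and 99.4 CPM in METH against 159 and 170.2 CPM in saline libraries, and the median mitochondrial share per member was 0.0805% and 0.0512% in METH libraries, against 0.0743% and 0.0665% in saline libraries. Of the SWI/SNF chromatin remodelling subunits 17 of 18 were tested, with a median of 0.04; Smarca2, an ATPase of the complex, stood at 0.28 (SE 0.131). Of the neurogliaform-type markers 14 of 22 were tested, 3 positive and 11 negative, with a median of −0.11 and with Prox1 at −0.33 (SE 0.166). That list includes Reln, Sv2c and Pde11a, by whose UMIs the members were chosen. Whether the signs of a list differ from those of all genes was not tested.

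Glial markers in the members lay above those of other Gad nuclei in some lists and below in others. Summed oligodendrocyte precursor markers came to 201, 209, 196 and 199 CPM, with Vcan alone at 190, 205, 190 and 189 CPM. In other Gad nuclei that sum was 84.6, 79.7, 73.0 and 60.1 CPM. Summed astrocyte markers, given below, were 427, 490, 495 and 424 CPM in other Gad nuclei. Of the oligodendrocyte markers 3 of 7 were tested and all had a positive fold change, with a median of 0.85. Mbp, myelin basic protein, had 152 and 72.7 CPM in METH against 41.5 and 48.9 CPM in saline libraries. Of the microglia markers 2 of 10 were tested, Inpp5d at 1.31 (SE 0.434) and Ctss at 1.48 (SE 0.642). Of the astrocyte markers 3 of 7 were tested, 2 positive and 1 negative with a median of 0.12; the transporter gene Slc1a3 had 121 and 148 CPM in METH against 80.8 and 80.9 CPM in saline libraries, and Slc4a4 stood at 0.12. None of these passed (adjusted p = 0.877 for Mbp, 0.946 for Inpp5d and 0.877 for Slc1a3), and the summed astrocyte markers were 304 and 373 CPM in METH libraries, against 301 and 228 CPM in saline libraries. Blood markers, 2 of 4 with a UMI and Hba-a2 and Hbb at 0, came to 64.3 and 63.8 CPM in METH libraries, against 37.1 and 33.7 CPM in saline libraries, and vascular markers, 5 of 6 with a UMI and Rgs5 at 0, to 31.3 and 25.2 CPM in METH libraries, against 13.1 and 3.37 CPM in saline libraries. What part RNA of other cell types had in these values was not tested.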

How the data were processed

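Nuclei from the orbitofrontal cortex were captured with 10x Genomics 3' chemistry (v3.1). The deposited values are raw UMI counts per gene and barcode, which the authors made with Cell Ranger 7.0.0, per the file headers. The submitters' processing notes give hg38, a human build, whereas the gene identifiers are those of rat; no coordinates are printed for this reason. Near-identical genes may share reads. Files were read with Scanpy 1.11.5 in Python 3.11.15; 25399 genes were listed.

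The members were found by the rule stated with the results, and no doublets were removed in the main comparison. Scrublet ranks (the top 0.8% per 1000 barcodes scored) served as an alternative. Member counts were added up within each library, because a nucleus is no replicate. METH and saline, with 2 libraries each, were then compared in edgeR 4.0.16 under R 4.3.3, with TMM factors, filterByExpr and a robust two-sided quasi-likelihood F test, adjusted by Benjamini-Hochberg over all genes tested. The SE of a fold change was obtained by dividing it by the root of the F value. The difference between classes was the class-by-treatment term with library as a block. DESeq2 1.42.0, other filters and thresholds, thinning and leaving out each library were alternatives.

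Named genes followed a written rule: genes called or, for a direction without calls, 5 non-overlapping genes ranked by p; the top 2 genes of each list by p; a fixed set (such as Fos, Drd1 and Cnr1); and the 25 highest and 15 lowest ratios of the profile. Other genes, those of the Reln split and the list members named in the profile, were chosen after their values were seen, as was the split itself. The members and the 43 gene lists were chosen with earlier results of these data known. A few genes that the rule names are not reported here. Intervals and floors (3 counts) cover counting error only.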

Additional observations from a re-analysis of the deposited data

Results flagged for a closer look

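With marked doublets kept, the METH effect on Foxp2 differed between Lamp5-type and other Gad nuclei by the test of the difference itself. The log2 difference was −2.61 (SE 0.452, adjusted p = 0.029 in edgeR's quasi-likelihood F test with library as a block), with Foxp2 lower in both METH libraries than in both saline libraries among Lamp5-type nuclei. In other Gad nuclei it had 40.3 and 64.2 CPM in METH against 71.3 and 36.4 CPM in saline libraries, where the groups overlapped. Of 49 Foxp2 UMIs in saline members, 40 lay in nuclei marked as doublets, and of 10 in METH members 2 did. Without marked doublets the difference was −0.40 and did not pass (adjusted p = 0.996 in the same test). Over all 18 alternatives the adjusted p of the difference was under 0.05 in 13. Removing doublets was among the 5 where it was not.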

How the results depend on the processing

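Counts of calls moved with the processing, and the cause was not tested except where the setting itself removes counts. In Lamp5-type nuclei the 3 calls became 0 with RLE factors (332 genes at an unadjusted p under 0.05), 0 by DESeq2 (24), 0 with marked doublets removed (361), 0 with at least 6 UMIs of Reln, Sv2c and Pde11a (326), 0 with at most 1% mitochondrial UMIs (329) and 0 after thinning, which leaves fewer counts (171). They became 8 without a filter on low counts. In the alternatives chosen after seeing the data they were 0 in nuclei with at most 1 oligodendrocyte marker UMI (282 unadjusted) and 1 with at most 1 excitatory marker UMI. In other Gad nuclei the single call became 22 without the filter and 2 with doublets removed, with equal numbers of nuclei (2) and after thinning (2). For the difference between classes the single call became 4 with RLE factors, 5 without the filter, 2 without robust fitting, 0 by DESeq2 (34 unadjusted), 6 with the threshold of 6, 4 with at least 1000 genes, 2 with equal numbers of nuclei and 2 with at most 1 excitatory marker UMI. Leaving out each library gave 6 to 31 calls in Lamp5-type nuclei, 4 to 25 in other Gad nuclei and 6 to 14 for the difference.

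In the Lamp5-type sums, samples with the same replicate number did not deviate together (correlation of deviations 0.0359 over 7653 genes). With 2 libraries per group this correlation cannot show whether the numbers pair libraries. With the replicate number as a block there were 12 calls in Lamp5-type nuclei, 44 in other Gad nuclei and 5 for the difference.

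The profile counts of 117 higher and 146 lower genes became 182 and 229 with 1 CPM added in place of 10, and the higher count 222 against Sst and 216 against Pvalb nuclei. Of 31 named genes tested, 8 changed sign under an alternative, none of them called. Gabra5, Grm7 and Nr2f1 became −0.0509, 0.00821 and 0.00669 after thinning, and Kcnj3 and Oprm1 became 0.00105 and −0.0922 with at most 1 excitatory marker UMI. Leaving out each library put Fkbp5 between −0.292 and 0.373, Cnr1 between −0.308 and 0.310 and Lamp5 between −0.339 and 0.0534. Cnr1 became 0.0443 with doublets removed, 0.141 after thinning, 0.158 with at most 1 oligodendrocyte and 0.0296 with at most 1 excitatory marker UMI. Lamp5 became 0.0685 after thinning and 0.0453 with at most 1 oligodendrocyte marker UMI. Depth limits the METH comparison: the members of a library summed to at most 673818 UMIs, and 7653 of 25399 genes had enough counts to be tested.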

Other observations

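Values of other gene groups in Lamp5-type against other Gad nuclei are given beside a share over all genes of 1.26% past 2-fold higher and 1.57% lower, at which a short list with no such gene is no result about that list. Of the mitochondrially encoded genes 11 reached 10 CPM, none was 2-fold apart in all libraries, and the median log2 ratio was −0.02. Of the SWI/SNF chromatin remodelling subunits 17 did, again with none past 2-fold and a median of 0.01. Among stress hormone genes the mineralocorticoid receptor gene Nr3c2 had a ratio of 0.39 (0.29 to 0.58) and the glucocorticoid receptor gene Nr3c1 of −0.10 (−0.17 to −0.02), while Zbtb16, a zinc finger repressor induced by glucocorticoids, had 804, 893, 733 and 814 CPM in Lamp5-type nuclei against 255, 297, 208 and 235 CPM in other Gad nuclei. Nos1, which makes nitric oxide and is used to tell apart some neurogliaform cells, was seen in 12.8% of members and 13.9% of other Gad nuclei, and Gucy1a1, a subunit of the nitric oxide receptor, was lower in the members at −1.42 (−1.71 to −1.14). The activity genes at 10 CPM or more had a median of −0.04 over 8 genes.

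Of the neuropeptide receptor genes, Hcrtr2 for orexin averaged 108 ± 8.35 CPM in Lamp5-type nuclei and 39.1 ± 9.17 CPM in other Gad nuclei, a ratio of 1.28 (0.98 to 1.49), and within the members it had 80.1, 71.2, 48.6 and 53.8 CPM in Reln-high nuclei against 210.2, 185, 176 and 217 CPM in Reln-low nuclei. Hcrtr2 was named for being at least 2-fold lower in Reln-high nuclei in all 4 libraries, so its direction in each was fixed.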
